A study of Homo sapiens with 6 samples.

Results

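Transcripts of 10 genes of the Wnt pathway were followed in MRC5 lung fibroblasts: the secreted inhibitors *SFRP1*, *DKK1* and *DKK3*, the ligands *WNT5A* and *WNT5B*, the receptor *FZD4* with its co-receptors *LRP5* and *TSPAN12*, and the intracellular feedback regulators *AXIN2* and *NKD2*. They are 10 of the 58676 gene identifiers in the deposited count table and were matched by GENCODE symbol. All 10 passed the minimum of 10 counts summed over the libraries that left 19072 genes for testing; *NKD2* came closest to that limit, with 81 counts, and no member fell below it. The genes had been selected on their values in the comparison described here, so their levels and fold changes are given as a description, and no p value is given for them.

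Wnt proteins are lipid-modified secreted ligands that bind Frizzled receptors. With the co-receptors LRP5 or LRP6 they keep β-catenin from being degraded, so that it enters the nucleus and activates genes together with TCF/LEF factors, whereas ligands such as WNT5A mostly act without β-catenin, through Frizzled with ROR or RYK receptors. SFRP proteins bind Wnt ligands outside the cell, DKK1 blocks LRP5 and LRP6, and the pathway is known in the lung for its part in branching, alveolar repair and fibroblast activation.

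RNA-Seq was performed on MRC5 cells, a human lung fibroblast line, after 24 h in conditioned media (CM). One group of 3 libraries received CM from control ATII ER:KRASV12 cells (control CM) and the other group of 3 received CM from the same cells treated with 4-hydroxytamoxifen (4-OHT) for 24 h (4-OHT CM). ATII ER:KRASV12 is a human alveolar epithelial type II line in which 4-OHT switches on RAS signaling, and the comparison asks how fibroblast transcripts differ between the CM of resting and RAS-activated epithelial cells. Both groups thus carry the same fibroblasts and the same epithelial line, each represented by 1 line; RAS activation and 4-OHT itself differed between the groups together, and their parts cannot be told apart. The labels do not say that libraries came from separate cultures, so p values measure only the spread between these libraries.

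Library totals ranged from 17691849 to 26389449 counts. Of 8 fibroblast markers all were measured, with summed levels of 36317 to 39620 CPM (counts per 1e+06 counts of the TMM-normalized library size). Of the 8, *DCN* (log2 fold change 0.33, edgeR adjusted p = 2.66e-06), *LUM* (0.29, adjusted p = 3.99e-05) and *PDGFRA* (0.22, adjusted p = 0.00343) were higher in 4-OHT CM and *VIM* (-0.10, adjusted p = 0.0414) was lower, and without control replicate 2, described next, *COL1A1* (-0.14) and *COL1A2* (-0.06) were called lower as well; their part in the results for the Wnt genes was not tested. Summed epithelial markers were at 93.9 to 99.7 CPM in control CM and 91.7 to 96.8 CPM in 4-OHT CM, with 7 of 12 measured, while *CDH1* had 4 counts over all libraries and *NKX2-1* and *ESRP1* had 0; endothelial and leukocyte markers summed to at most 0.616 CPM. Control replicate 2 had the fewest counts and stood apart from the other libraries on the first principal component, at 41.7 against 0.0832 to 7.43 for the other control libraries and -21.5 to -12.9 for the 4-OHT CM libraries. Without it, fold changes are given beside several of the Wnt genes. Because these are bulk libraries, fewer cells of a type and less RNA per cell cannot be told apart.

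Among the 10 Wnt genes, 4 were called higher in 4-OHT CM (*FZD4*, *LRP5*, *TSPAN12* and *NKD2*), 4 were called lower (*SFRP1*, *DKK1*, *DKK3* and *WNT5B*) and *WNT5A* and *AXIN2* were not called, at an edgeR adjusted p below 0.05. Over all 19072 genes tested, 5.72% were called, 2.95% higher and 2.76% lower. This share moved with the libraries used, from 2.88% without 4-OHT CM replicate 2 to 8.19% without control replicate 2, and was 3.33% without 4-OHT CM replicate 3 and 3.58% without control replicate 3. The CPM of the groups did not overlap for any of the 10 genes, against 22.1% of all genes tested. Since the same comparison chose the genes, nothing is read from these counts. The members called lower were 3 genes of secreted inhibitor families and a ligand. Those called higher were 3 cell-surface receptor components and an intracellular inhibitor of Dishevelled. No pattern is read from these roles either, since the genes were chosen on these values. Among pathway genes outside the 10, none of 8 inhibitors measured was called, and 3 of 14 receptors were called higher.

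**Figure D1:**
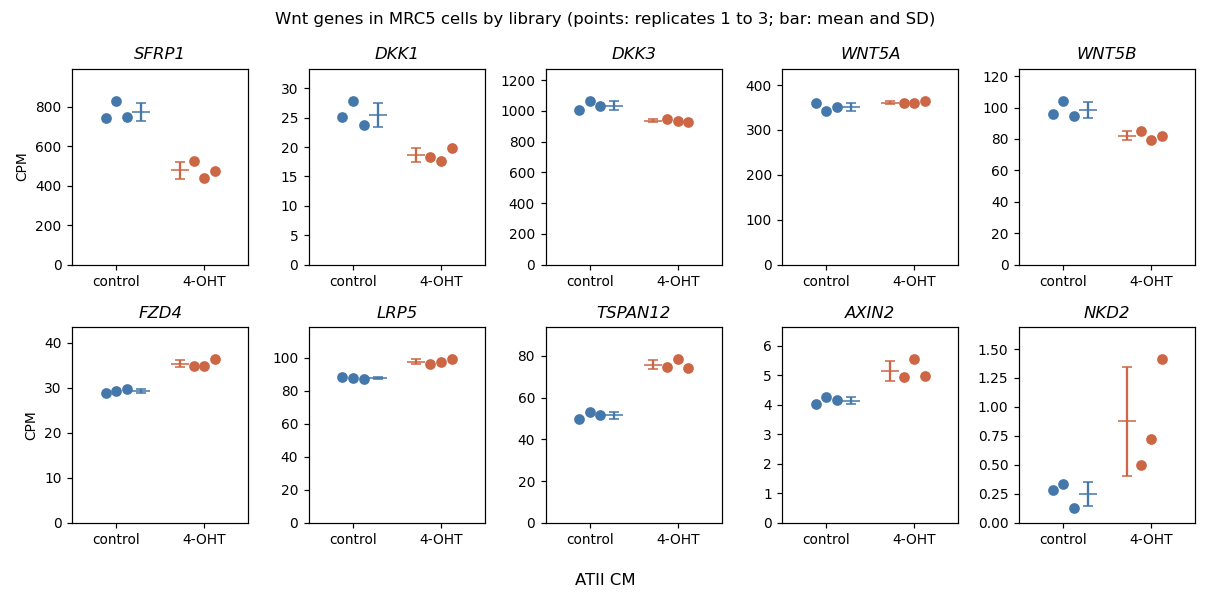
Level in CPM (y axis, from 0) of each Wnt gene in the 3 control CM libraries (blue) and the 3 4-OHT CM libraries (red); each point is a library, and the bar marks the mean and SD. *SFRP1* lies between 742 and 827 in control CM and between 439 and 522 in 4-OHT CM, whereas *WNT5A* lies between 342 and 364 in all libraries.

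Promoter windows are shown first for 4 members with a change in transcript level, *DKK1*, *TSPAN12*, *FZD4* and *LRP5*. They are RefSeq sequences on GRCh38.p14 from 250 bases before to 50 bases after a RefSeq start site, read along the gene's strand; that site lies 258 bases inside the deposited *TSPAN12* gene, whereas those of *DKK1*, *FZD4* and *LRP5* lie just upstream of the deposited genes. Capitals mark the letters CTTTGA (the core of a TCF/LEF motif) and GGAATG (the core of a TEAD motif) on either strand, so that TCAAAG and CATTCC are their reverse complements.
DKK1 promoter, chr10:52314031-52314330, plus strand: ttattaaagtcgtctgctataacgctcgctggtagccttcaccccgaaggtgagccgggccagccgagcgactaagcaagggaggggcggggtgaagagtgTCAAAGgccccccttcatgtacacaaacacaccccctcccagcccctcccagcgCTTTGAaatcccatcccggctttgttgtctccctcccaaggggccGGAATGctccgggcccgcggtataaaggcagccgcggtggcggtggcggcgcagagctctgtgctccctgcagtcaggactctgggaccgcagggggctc
TSPAN12 promoter, chr7:120858095-120858394, minus strand: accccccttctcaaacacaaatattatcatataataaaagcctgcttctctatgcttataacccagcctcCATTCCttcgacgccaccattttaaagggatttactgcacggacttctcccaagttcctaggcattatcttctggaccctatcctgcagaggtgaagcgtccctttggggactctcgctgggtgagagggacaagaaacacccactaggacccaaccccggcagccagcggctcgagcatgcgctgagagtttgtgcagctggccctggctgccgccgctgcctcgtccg
FZD4 promoter, chr11:86955346-86955645, minus strand: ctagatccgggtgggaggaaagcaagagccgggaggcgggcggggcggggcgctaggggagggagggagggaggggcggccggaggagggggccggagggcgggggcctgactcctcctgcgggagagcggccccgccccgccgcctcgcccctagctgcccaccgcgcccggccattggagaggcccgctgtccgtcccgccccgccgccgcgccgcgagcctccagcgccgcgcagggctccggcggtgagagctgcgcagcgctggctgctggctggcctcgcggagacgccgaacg
LRP5 promoter, chr11:68312341-68312640, plus strand: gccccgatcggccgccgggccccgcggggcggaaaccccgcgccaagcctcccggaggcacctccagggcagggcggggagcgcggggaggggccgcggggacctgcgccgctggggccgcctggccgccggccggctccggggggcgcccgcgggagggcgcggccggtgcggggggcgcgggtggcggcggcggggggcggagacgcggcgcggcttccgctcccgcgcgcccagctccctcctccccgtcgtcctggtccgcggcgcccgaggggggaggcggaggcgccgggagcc

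The *DKK1* window held 2 matches to CTTTGA, at -149 and -95 from the RefSeq start site, and 1 match to GGAATG at -50. The *TSPAN12* window held 1 match to GGAATG at -180 from its RefSeq start site, a position close to the 5′ end of the deposited gene and inside it. No match to either motif, nor to the AP-1 motif TGANTCA, was found in the windows of *FZD4* and *LRP5* or in those of *NKD2*, *WNT5A* and *WNT5B*, 7 of the 10 genes having a window in the table used. The start sites of the windows of *WNT5A* (2) and *WNT5B* (2) lie 3233 to 99340 bases downstream of the deposited 5′ ends, so these windows do not describe the regions at those ends. Among 27305 windows of the same length, 13.1% held CTTTGA, 7.76% held TGANTCA and 14% held GGAATG on either strand, and none of the matches printed overlaps another. G and C made up 86.7% of the *LRP5* window and 79.7% of the *FZD4* window, both above the upper quartile of 67.7% over all windows, whereas *DKK1* (63.7%) and *TSPAN12* (54.3%) lay within the interquartile range that starts at 46.7%. A match describes letters only and says nothing of a bound factor.

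*SFRP1* (ENSG00000104332; GRCh38 chromosome 8, 41261958 to 41309497, minus strand) encodes secreted frizzled-related protein 1, which binds Wnt ligands outside the cell. Its level was 742, 827 and 749 CPM in control CM and 522, 439 and 472 CPM in 4-OHT CM. Every control library was above every 4-OHT CM library, with a gap between 522 and 742 CPM. The mean fell from 772 ± 47.2 to 477 ± 41.9 CPM (SD, n = 3), a log2 fold change of -0.69 (SE 0.0531), or -38.2%. Control replicate 2 was the highest library, and without it the log2 fold change was -0.643. *SFRP1* was among the most abundant transcripts of these fibroblasts, in the top 1.08% of tested genes by CPM per kilobase of exon in control CM.

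The 5 genes whose pattern over the 6 libraries was closest to that of *SFRP1* were *BUB1*, *SH2D5*, *SHCBP1*, *CEP55* and *ASPM*, among 9202 genes with a mean of at least 10 CPM. Likeness was the root mean square difference of centred log2 CPM, which was 0.069 for *BUB1*, 0.070 for *SH2D5* and 0.072 for *SHCBP1*. For *CEP55* it was 0.083 and for *ASPM* 0.085. Their log2 fold changes ranged from -0.77 (*ASPM*) to -0.57 (*SHCBP1*), around that of *SFRP1*. *BUB1*, the closest, was at 16.3 to 17.7 CPM in control CM and 10.5 to 11.9 CPM in 4-OHT CM. All points share the same 6 libraries in 2 groups, so the measure largely follows the difference between groups.

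*DKK1* (ENSG00000107984; chromosome 10, 52314296 to 52318042, plus strand) encodes a secreted protein that blocks LRP5 and LRP6. It was measured at 25.1, 27.8 and 23.8 CPM in control CM and at 18.3, 17.6 and 19.9 CPM in 4-OHT CM. The lowest control library stayed above the highest 4-OHT CM library. The mean fell from 25.5 ± 2.04 to 18.6 ± 1.2 CPM (SD, n = 3), a log2 fold change of -0.45 (SE 0.0724), and it was -0.392 without control replicate 2. The antisense gene *PRKG1-AS1* covers 212 bases (9.61%) of its exons on the opposite strand and had 25 counts in all, against 2931 for *DKK1*.

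*DKK3* (ENSG00000050165; chromosome 11, 11963106 to 12009769, minus strand) belongs to the same protein family, although it is not known to block LRP6 as DKK1 does. Its 3 control libraries gave 1006, 1062 and 1032 CPM and its 4-OHT CM libraries gave 945, 934 and 924 CPM. The groups were separate but close, the mean going from 1033 ± 28.3 to 934 ± 10.2 CPM (SD, n = 3), a log2 fold change of -0.15 (SE 0.0288). Control replicate 2 was again the highest, and the log2 fold change without it was -0.125; without 4-OHT CM replicate 3 it was -0.140 and no longer called.

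Per length, *DKK3* and *SFRP1* made up most of the transcripts of the SFRP and DKK families, classed here as secreted inhibitors, in all libraries. *DKK3* is classed so by its family, and its share says nothing of inhibition. The share of *SFRP1* in their summed CPM per kilobase was 42.3, 43.6 and 42.0% in control CM and 35.7, 32.0 and 33.8% in 4-OHT CM. That of *DKK3* was 52.7 to 54.5% in control CM and 60.8 to 64.1% in 4-OHT CM, so that its share was higher although its level was lower. *DKK1* held 3.04 ± 0.145% and 2.84 ± 0.201% (SD, n = 3), and its ranges overlapped. The ratio of *SFRP1* to *DKK3* per length was 0.794 ± 0.0294 in control CM and 0.543 ± 0.0439 in 4-OHT CM.

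*WNT5B* (ENSG00000111186; chromosome 12, 1529891 to 1647243, plus strand) encodes a ligand closely related to WNT5A. Its levels were 95.7, 104 and 94.8 CPM in control CM and 85.1, 79.2 and 81.9 CPM in 4-OHT CM. No 4-OHT CM library reached the lowest control library, and control replicate 2 was once more the highest. The mean fell from 98.3 ± 5.21 to 82.1 ± 2.95 CPM (SD, n = 3), a log2 fold change of -0.26 (SE 0.0444) that was -0.215 without control replicate 2.

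*WNT5A* (ENSG00000114251; chromosome 3, 55465715 to 55490539, minus strand), the best-known ligand of the branch that does not use β-catenin, was the most abundant Wnt ligand transcript. It was measured at 359, 342 and 351 CPM in control CM and at 360, 360 and 364 CPM in 4-OHT CM. The highest control library lay just below the lowest 4-OHT CM library. Means of 351 ± 8.64 and 361 ± 2.60 CPM (SD, n = 3) gave a log2 fold change of 0.04 (SE 0.0315), the smallest of the 10 genes and not called; without control replicate 2, its lowest library, it was 0.026.

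*WNT5A* and *WNT5B* thus differed in their course. The ratio of their levels per length was 2.18, 1.91 and 2.16 in control CM and 2.46, 2.64 and 2.59 in 4-OHT CM, without overlap. *WNT5A* kept 53.0 ± 1.03% and 53.4 ± 0.645% of the summed ligand level per length, while *WNT5B* held 25.5 ± 1.43% in control CM and 20.8 ± 0.559% in 4-OHT CM (SD, n = 3). *WNT2*, a ligand known from lung mesenchyme, held 15.8 ± 0.587% and 20.5 ± 0.433%, close to *WNT5B* in 4-OHT CM. The ratio of *SFRP1* to the sum of *WNT5A* and *WNT5B* per length was 2.20, 2.47 and 2.26 in control CM and 1.6, 1.37 and 1.45 in 4-OHT CM. *SFRP1* transcripts thus outnumbered those of both ligands per length in every library, by less in 4-OHT CM.

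**Figure D2:**
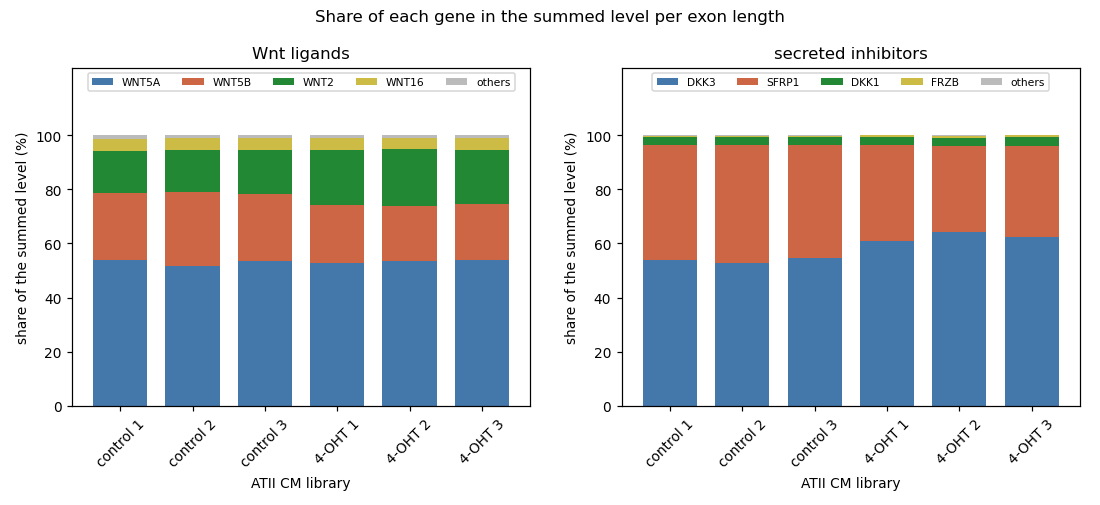
Share in percent (y axis) of each gene in the summed CPM per kilobase of exon of the measured Wnt ligands (left) and of the secreted inhibitors of the SFRP and DKK families (right), one bar per library. In 4-OHT CM *WNT5B* takes 20.3 to 21.4% of the ligands against 24.7 to 27.2% in control CM, and *SFRP1* takes 32.0 to 35.7% of the inhibitors against 42.0 to 43.6%.

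FZD4, LRP5 and TSPAN12 are known to form a receptor complex for Norrin, a ligand outside the Wnt family that activates β-catenin signaling, and FZD4 and LRP5 also serve Wnt ligands. *TSPAN12* (ENSG00000106025; chromosome 7, 120787320 to 120858402, minus strand) encodes the tetraspanin of that complex. It was at 49.7, 53.0 and 51.8 CPM in control CM and at 74.9, 78.3 and 74.2 CPM in 4-OHT CM. All 3 libraries of 4-OHT CM were above all 3 of control CM, with a gap between 53.0 and 74.2 CPM. The mean rose from 51.5 ± 1.67 to 75.8 ± 2.20 CPM (SD, n = 3), a log2 fold change of 0.56 (SE 0.0412), the largest upward change of a member with over 1 CPM, and 0.579 without control replicate 2.

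*FZD4* (ENSG00000174804; chromosome 11, 86945679 to 86955391, minus strand) encodes the Frizzled receptor of the complex. Its level was 28.9, 29.3 and 29.8 CPM in control CM and 34.9, 34.9 and 36.3 CPM in 4-OHT CM, with replicates of each group close together. The mean rose from 29.3 ± 0.485 to 35.4 ± 0.808 CPM (SD, n = 3), a log2 fold change of 0.27 (SE 0.0489). *PRSS23*, a protease gene on the opposite strand, covers 1399 bases (18.9%) of the *FZD4* exons. *PRSS23* was more abundant, at 351 ± 3.80 CPM in control CM and 325 ± 6.15 CPM in 4-OHT CM, a log2 fold change of -0.11 (SE 0.0312, edgeR adjusted p = 0.0507; adjusted p = 0.0338 without control replicate 2), in the direction opposite to *FZD4*. The strand setting of the counting was not given in the sources used here. The part of shared reads in the *FZD4* level was not tested. *FZD4* was a minor Frizzled, with 2.51 ± 0.0828% and 2.90 ± 0.0581% of the summed Frizzled level per length, of which *FZD2* held 36.9% and *FZD7* 33.1% in control CM.

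*LRP5* (ENSG00000162337; chromosome 11, 68312609 to 68449275, plus strand) encodes the co-receptor. It was measured at 88.6, 87.6 and 87.5 CPM in control CM and at 96.4, 97.5 and 99.1 CPM in 4-OHT CM. The groups did not overlap, and the mean rose from 87.9 ± 0.586 to 97.7 ± 1.38 CPM (SD, n = 3), a log2 fold change of 0.15 (SE 0.0358). The call was lost when control replicate 3 (0.143), 4-OHT CM replicate 2 (0.152) or 4-OHT CM replicate 3 (0.139) was left out, with little change in the fold. Its paralog *LRP6*, named outside the rule for comparison with *LRP5*, had overlapping groups, with a log2 fold change of 0.00 (SE 0.0569, edgeR adjusted p = 0.99) and control replicate 2 lowest at 85.2 CPM, without which it was -0.08 (adjusted p = 0.214). The ratio of *LRP5* to *LRP6* per length was 1.45, 1.72 and 1.43 in control CM and 1.69, 1.66 and 1.70 in 4-OHT CM. Control replicate 2 alone made the groups overlap, the other control libraries lying below all of 4-OHT CM. Transcripts of *LRP5L* align to *LRP5* with 90.5% identity over 1621 bases, and how the counting treated reads mapping to several places was not given in the sources used here.

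Norrin itself, encoded by *NDP*, was near the detection limit, with 3, 0 and 1 counts in control CM and 1, 1 and 8 counts in 4-OHT CM, and *NDP* was singled out after its values had been seen. No difference was detectable for it at this depth (edgeR adjusted p = 0.692).

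*AXIN2* (ENSG00000168646; chromosome 17, 65528563 to 65561647, minus strand) is a widely used β-catenin target gene whose product is a scaffold of the complex that degrades β-catenin. Its levels were 4.03, 4.26 and 4.15 CPM in control CM and 4.93, 5.53 and 4.98 CPM in 4-OHT CM. The 4-OHT CM libraries were all above the control libraries, but the gene was not called in the test or in any of 12 alternatives. Means of 4.14 ± 0.113 and 5.15 ± 0.333 CPM (SD, n = 3) gave a log2 fold change of 0.32 (SE 0.122), and 633 counts in all lay behind them. A gene of the same strand, ENSG00000266076, covers 1316 bases of its exons and had 1 count.

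*NKD2* (ENSG00000145506; chromosome 5, 1008829 to 1038943, plus strand) encodes a Dishevelled-binding inhibitor of Wnt signaling. It had 6, 6 and 3 counts in control CM and 11, 18 and 37 counts in 4-OHT CM, or 0.281, 0.336 and 0.132 CPM against 0.502, 0.722 and 1.41 CPM. The groups did not overlap, but 4-OHT CM replicate 3 held more counts than the other 4-OHT CM libraries together. The mean rose from 0.250 ± 0.105 to 0.877 ± 0.472 CPM (SD, n = 3), a log2 fold change of 1.85 (SE 0.469). It was 1.32 and not called without 4-OHT CM replicate 3, it was 2.095 without control replicate 2, and 5 of 11 alternatives with an adjusted p lost the call; the others of these were limma-voom and the fits without control replicate 1, control replicate 3 or 4-OHT CM replicate 2. Its paralog *NKD1*, named after its values had been seen, had 7 counts in all and was not tested.

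Compared per kilobase of exon, the 10 genes spanned a wide range of levels in control CM. *DKK3* was highest at 204 ± 5.59 CPM per kilobase, then *SFRP1* at 162 ± 9.91 and *WNT5A* at 47.4 ± 1.17 (SD, n = 3). Below them came *WNT5B* (22.8), *TSPAN12* (15.3), *LRP5* (14.3), *DKK1* (11.6), *FZD4* (3.97), *AXIN2* (0.793) and *NKD2* (0.0866). The ranges of neighbours in this order did not overlap, the closest being *TSPAN12*, with a lowest library of 14.8, and *LRP5*, with a highest of 14.4. In 4-OHT CM the order was the same except that *TSPAN12* (22.0 to 23.3) lay above *WNT5B* (18.4 to 19.8), again with no overlap between neighbours. *SFRP1* came closer to *WNT5A*, at 100 against 48.9 CPM per kilobase.

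**Figure D3:**
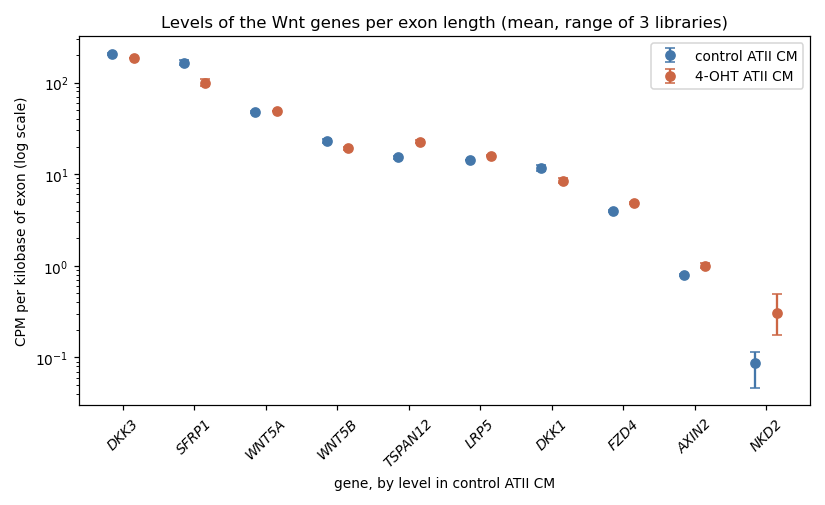
Level per exon length in CPM per kilobase (y axis, log scale) of the 10 Wnt genes, in the order of control CM; points are means of 3 libraries in control CM (blue) and 4-OHT CM (red), and bars span the lowest to the highest library. *TSPAN12* and *WNT5B* exchange places between the groups, from 15.3 and 22.8 in control CM to 22.5 and 19.1 in 4-OHT CM.

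The 10 genes also differed in how far replicates spread. The coefficient of variation in control CM was 6.11% for *SFRP1* and 7.97% for *DKK1*, but 0.667% for *LRP5* and 42.2% for *NKD2*. The 4 genes that fell each had their highest control value in replicate 2, and their log2 fold changes without that library were closer to 0 than with it. All 4 were called without it, and the members that rose stayed called as well.

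**Figure D4:**
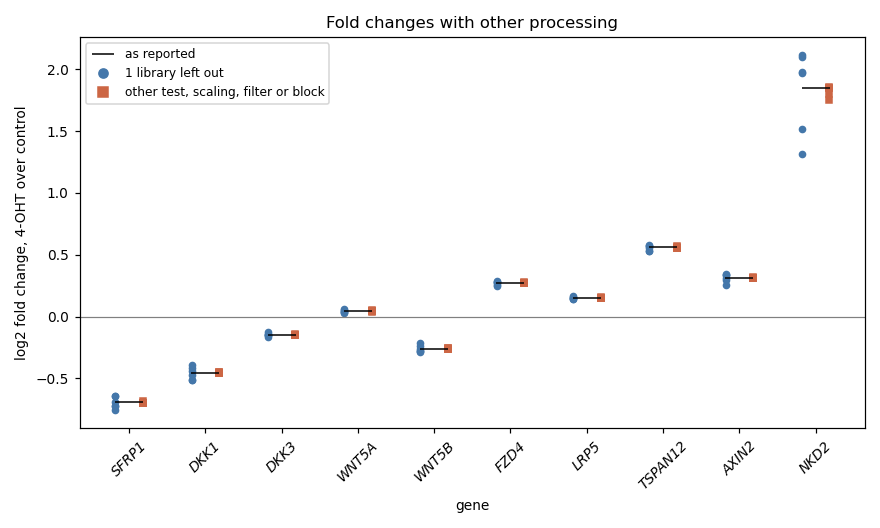
Log2 fold change, 4-OHT CM over control CM (y axis), of each Wnt gene (x axis) as reported (black line), with 1 library left out (blue points) and with another test, scaling, filter or block (red squares). Every gene keeps its direction, and *NKD2* has the widest range, from 1.32 to 2.12.

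The other genes of the pathway were taken from lists of 109 genes, of which 84 were measured and 19 had 0 counts. In 4-OHT CM 7 of the 84 were higher and 2 lower (10.7% called, against 5.72% of all genes tested), and the median log2 fold change was 0.047 against -0.002 over all genes tested. The 71 with a mean of at least 1 CPM held the same 9 calls, with a median of 0.039. With filterByExpr, a stricter filter on low counts, 8.03% of all genes tested were called. The lists were chosen with earlier results of these data known, so no excess of calls is read from these shares. Some genes stand in more than 1 list.

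Of 13 other ligands and R-spondins measured, *WNT2* was called, rising from 63.6 ± 2.17 to 84.2 ± 1.77 CPM (SD, n = 3; log2 fold change 0.40, SE 0.0399, edgeR adjusted p = 2.35e-05). *WNT16* (-0.06) and *WNT9A* (-0.05) were not called. *WLS*, which carries Wnt proteins to the cell surface, was at 267 ± 2.86 and 278 ± 5.29 CPM and was not called, nor was *PORCN*, which adds their lipid.

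None of the 8 other secreted or surface inhibitors measured was called. *FRZB*, a relative of *SFRP1*, was at 5.51 ± 0.176 CPM in control CM and 7.09 ± 0.163 CPM in 4-OHT CM (log2 fold change 0.36, edgeR adjusted p = 0.055), the opposite direction to *SFRP1*, and *KREMEN1*, a receptor for DKK1, was at 32.2 ± 0.471 and 36.7 ± 2.32 CPM (0.19, adjusted p = 0.0508). Each missed the threshold narrowly in this fit. *FRZB* was called in 1 of 12 alternatives and *KREMEN1* in 3, and with DESeq2 their adjusted p was 0.154 and 0.101. *TPBG*, a surface inhibitor, was at 92.0 ± 1.91 and 98.0 ± 1.65 CPM (adjusted p = 0.2).

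Among 14 other receptors measured, 3 were higher and none lower. *ROR2*, a receptor for WNT5A, rose from 24.3 ± 0.857 to 31.7 ± 1.03 CPM (log2 fold change 0.38, edgeR adjusted p = 0.000537). *PTK7*, a pseudokinase co-receptor, rose from 620 ± 2.87 to 699 ± 7.12 CPM (0.17, adjusted p = 0.00132), and *FZD1* rose from 58.1 ± 1.23 to 66.7 ± 1.14 CPM (0.20, adjusted p = 0.00465). The most abundant Frizzled transcripts per kilobase of exon, *FZD2* (0.00) and *FZD7* (0.10), were not called.

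No gene was called among 20 of the cytoplasmic relay, where *CTNNB1*, encoding β-catenin, had a log2 fold change of 0.04 (SE 0.0304, edgeR adjusted p = 0.578), *DVL3* 0.03 and *CSNK1A1* 0.06, nor among 10 of the planar polarity branch, with *VANGL1* at -0.05, *VANGL2* at 0.19 and *PRICKLE2* at 0.08 (0.013 without control replicate 2). Of 13 nuclear factors, *TLE1*, a co-repressor of TCF/LEF, rose from 42.0 ± 0.789 to 49.0 ± 1.18 CPM (0.22, adjusted p = 0.00511), and *TLE5*, *BCL9L* and *PYGO2* were not called.

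Of 8 β-catenin target genes measured besides *AXIN2* and *NKD2*, 2 were higher and 2 lower. *TCF7* (-0.15), *APCDD1* (-0.08), *LEF1* (-0.01) and *ZNRF3* (0.01) were not called (edgeR adjusted p from 0.608 to 0.988). *SP5*, *LGR5* and *RNF43* had 0 counts, *NOTUM* had 4 and *NKD1* had 7. *BAMBI*, a decoy receptor of TGF-β signaling, rose from 39.2 ± 2.80 to 48.0 ± 0.382 CPM (log2 fold change 0.29, edgeR adjusted p = 0.00268), and the receptor gene *TNFRSF19* rose from 198 ± 5.90 to 227 ± 4.77 CPM (0.20, adjusted p = 0.00305). *CCND1*, encoding cyclin D1, fell from 841 ± 12.3 to 757 ± 5.14 CPM (-0.15, adjusted p = 0.00332). *MYC* fell from 37.1 ± 0.737 to 32.8 ± 0.601 CPM (-0.18, adjusted p = 0.0379), a call lost in 8 of 12 alternatives. Target genes such as these, whether higher or lower, can also have regulators outside the Wnt pathway. The part of β-catenin in their values was not tested.

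**Figure D5:**
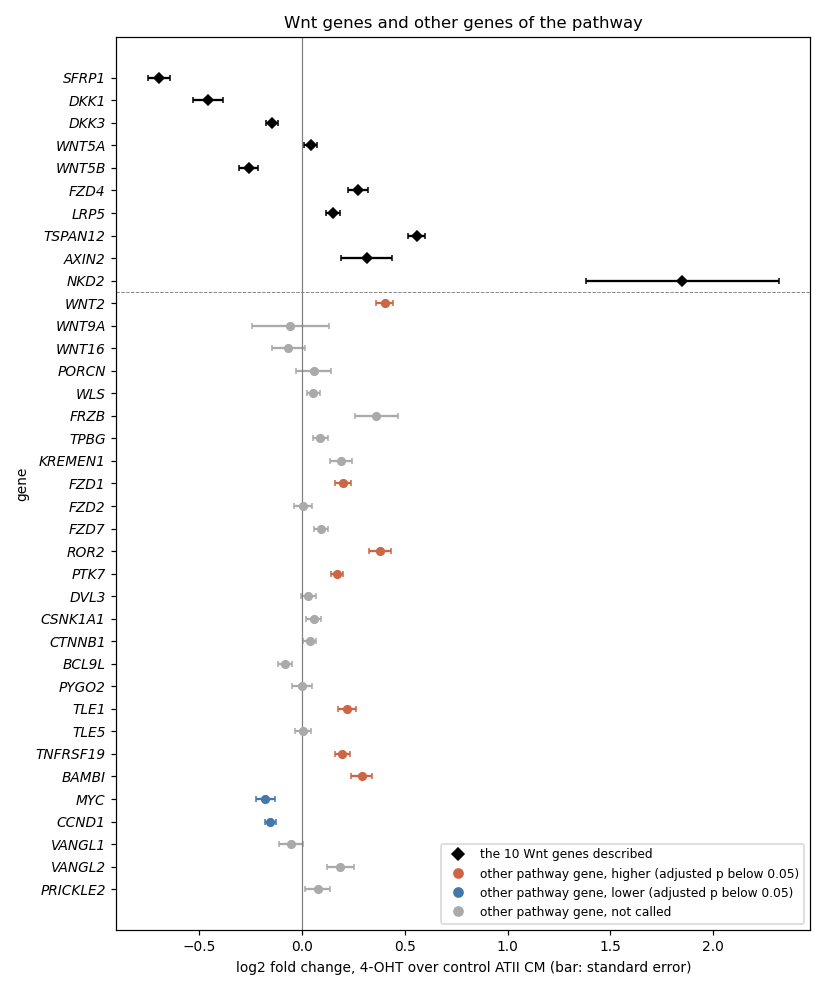
Log2 fold change, 4-OHT CM over control CM (x axis), with its standard error (bar), of the 10 Wnt genes (black diamonds) and of the other pathway genes named by rule (circles; red, called higher; blue, called lower; grey, not called). *SFRP1* (-0.69) has the largest fall, *NKD2* (1.85) the largest rise with the widest error, and the called genes outside the 10 lie between -0.18 and 0.40.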

How the data were processed

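RNA-Seq of MRC5 cells (3 control CM and 3 4-OHT CM libraries) was analysed from the table of raw counts per gene that the authors deposited. Per the submitters' processing notes, reads were trimmed (Trim Galore), aligned to GRCh38 (HISAT2 2.1.0) and assigned to genes (featureCounts 1.6.5); the annotation release, strand setting and treatment of multimapping reads are not given in the sources used here. Groups came from the sample labels. The counts of 45 identifiers listed more than once were added, and names came from GENCODE 44.

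Genes whose counts summed to at least 10 entered TMM normalization and the quasi-likelihood test of edgeR 4.0.16 (R 4.3.3), with group as the only term, Benjamini-Hochberg adjustment over all tested genes and a threshold of 0.05. The common biological coefficient of variation was 4.36%, and 3306 genes had an unadjusted p below 0.05. Each standard error is the fold change divided by the root of its F value. CPM used TMM-normalized library sizes, divided by the deposited merged exon length for levels per kilobase; log2 CPM for patterns used a prior count of 2. No library was a copy of another: the chi-square per degree of freedom between replicates was 2.12 to 6.03.

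Named were all 10 genes, the 5 genes nearest to *SFRP1* and markers. Of each pathway list the called genes and the 3 most abundant per kilobase of exon were named. *LRP6*, *PRSS23*, *NDP*, *NKD1*, *WNT11*, *SCRIB* and the remaining β-catenin target genes were named outside this rule. The genes and the lists were chosen with earlier results of these data known. Transcripts similar to the members were found with BLAST 2.17.0 (at least 90% identity over at least 150 bases). Alternatives were DESeq2 1.42.0, limma-voom (limma 3.58.1), RLE size factors, no filter, filterByExpr, the replicate number as a block and leaving out each library.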

Additional observations from a re-analysis of the deposited data

How the results depend on the processing

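All 10 Wnt genes kept their direction under every alternative that gave a value. Of their 119 values, 110 also kept their side of the threshold and 9 lost it (*NKD2* 5, *LRP5* 3, *DKK3* 1); DESeq2 gave *NKD2* no adjusted p. Genes called higher among the 10 numbered 4, and 2 to 4 with a library left out; those called lower numbered 4, and 3 to 4. For the other pathway genes, 7 higher and 2 lower became 7 to 8 and 1 to 2 with a library left out; 10 were higher without the filter on low counts and 9 with filterByExpr (under which 8.03% of all genes tested were called), and 1 was lower with DESeq2. Over all genes, 563 higher became 875 without the filter on low counts and 289 to 696 with a library left out, and 527 lower became 244 to 834, lowest without 4-OHT CM replicate 2 and highest without control replicate 2. With a library left out, *FZD2* ranged from -0.042 to 0.050, *PYGO2* from -0.047 to 0.030, *TLE5* from -0.038 to 0.040, *VANGL1* from -0.089 to 0.009 and *WNT9A* from -0.124 to 0.034, so that their direction was not fixed; the cause was not tested. *WNT16* ranged from -0.126 to -0.022, *CSNK1A1* from 0.024 to 0.085, *DVL3* from 0.017 to 0.045 and *PRICKLE2* from 0.013 to 0.135. *FRZB* was called with filterByExpr only (edgeR adjusted p = 0.0407) and *KREMEN1* under 3 of 12 alternatives. With a library left out their edgeR adjusted p reached 0.164 and 0.294. Depth limits *NKD2*, *NDP* and *WNT11*.

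Deviations of same-numbered libraries correlated at -0.0145, -0.104 and -0.0931 over 9691 genes, and those of differently numbered libraries at -0.0645 to 0.161. No pairing by replicate number was seen. The deviations were centred within groups of 3, so these values cannot tell whether the samples were paired. With the replicate block, 502 genes were higher and 483 lower, 4 and 4 among the 10 Wnt genes, and 7 and 1 among the other pathway genes, *MYC* losing its call.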

Other observations

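Outside the naming rule, and singled out after their values had been seen, the pathway genes with the largest fold changes that were not called were *WNT11* and *SCRIB*. *WNT11*, a ligand, had 1, 1 and 2 counts in control CM and 5, 5 and 5 counts in 4-OHT CM (edgeR adjusted p = 0.256). *SCRIB*, a cell polarity scaffold, was at 1.69, 3.81 and 9.88 CPM in control CM and 8.54, 15.8 and 8.29 CPM in 4-OHT CM (log2 fold change 1.06, adjusted p = 0.132), with overlapping groups and more spread between replicates than any of the 10 Wnt genes with over 1 CPM.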
